A study of Homo sapiens with 18 samples.

Results

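The Src family of protein tyrosine kinases and CSK, the kinase that restrains them, were followed in NB4 cells, a human cell line grown from an acute promyelocytic leukemia. The members were taken by name from a list: the family kinases FGR, LYN, FYN, SRC, YES1, LCK and BLK, and CSK. Each had 1 probe set annotated to that gene alone, which makes 8 of the 18417 genes that have at least 1 such probe set. RNA was measured on 18 Affymetrix whole-transcript arrays in 6 groups of 3, which the labels call biological replicates. Wild-type NB4 and NB4 cells named TG2 knockout were untreated, or received 1 µM all-trans retinoic acid (ATRA) for 48 h or for 72 h. All cells were of the 1 line in the same medium. The labels name the altered line a knockout but code its samples KD, and they do not say how it was made or whether it is 1 clone.

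Src family kinases are held to the inner face of the plasma membrane by lipid groups on their N-terminal end. Each is closed into an inactive shape when CSK phosphorylates a tyrosine in its C-terminal tail, and phosphatases such as CD45 reopen it. In neutrophils and their precursors they carry signals from integrins, Fc receptors and chemoattractant receptors by phosphorylating the signalling motifs of those receptors, and LYN also phosphorylates the inhibitory motifs. FGR belongs mainly to myeloid cells, LYN to myeloid and B cells, LCK to T cells and BLK to B cells. SRC, YES1 and FYN are found in most tissues. ATRA binds retinoic acid receptors and drives NB4 cells to mature along the neutrophil path. TG2 is transglutaminase 2, an enzyme that links proteins and is encoded by TGM2.

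The values are the deposited log2 signals, and a member was called when its adjusted p was under 0.05 (limma, Benjamini-Hochberg over all 33297 probe sets). Array medians lay between 6.12 and 6.26. TGM2, the gene named in the genotype, had a mean log2 signal of 6.43 in untreated cells of the wild type and 6.39 in those of the knockout. It reached 12.27 and 12.37 in wild-type cells at 48 and 72 h, against 10.95 and 11.24 in knockout cells. The line labelled knockout thus had 40.2% of the wild-type TGM2 signal at 48 h and 45.7% at 72 h. On the first principal component (57.1% of the variance) 4 ATRA arrays lay at 17.5 to 31.2: from 48 h the first wild-type replicate and the knockout replicates 1 and 3, and from 72 h the knockout replicate 2. The other ATRA arrays lay at 46.3 to 56.6 and the untreated arrays at −89.9 to −84.7. Calls of members against untreated cells, or over both ATRA times, that were gained or lost without those 4 arrays are given beside the result. Leaving them out leaves 1 array in the knockout 48 h group, which is then assumed to vary like the other groups.

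The stretches just upstream of the members with the widest changes are shown because FGR and CSK rose together under ATRA while FYN and YES1 fell. Each is the 250 bases before a transcription start in RefSeq (build GRCh38.p14), read 5′ to 3′ on the gene's strand, with the letters GAGGAA or their reverse complement in capitals. Those letters are the PU box, the core that the myeloid transcription factor SPI1 recognises. The FGR stretch is the first listed for that gene, chr1:27635186-27635435 on the minus strand. Any further FGR start was left out, while all listed FYN and LCK starts were kept. CSK is at chr15:74788294-74788543 on the plus strand. The first of the 4 FYN starts follows chr6:111873453-111873702 and the YES1 start chr18:812243-812492, both on the minus strand.
FGR: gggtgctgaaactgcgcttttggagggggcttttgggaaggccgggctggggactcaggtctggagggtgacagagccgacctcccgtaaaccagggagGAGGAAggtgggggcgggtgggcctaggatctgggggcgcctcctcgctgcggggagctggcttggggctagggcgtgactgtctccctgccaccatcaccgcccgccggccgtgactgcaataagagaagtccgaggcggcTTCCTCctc
CSK: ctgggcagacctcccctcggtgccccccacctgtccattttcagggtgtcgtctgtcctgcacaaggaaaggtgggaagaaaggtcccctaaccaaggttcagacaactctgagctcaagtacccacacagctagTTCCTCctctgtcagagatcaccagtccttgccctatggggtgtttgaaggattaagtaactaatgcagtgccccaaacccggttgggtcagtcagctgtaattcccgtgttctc
FYN first start: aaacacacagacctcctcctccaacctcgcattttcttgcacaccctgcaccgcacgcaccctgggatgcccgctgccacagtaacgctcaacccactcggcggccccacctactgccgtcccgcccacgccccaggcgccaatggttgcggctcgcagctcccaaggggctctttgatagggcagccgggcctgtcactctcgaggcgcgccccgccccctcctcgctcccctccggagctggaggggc
YES1: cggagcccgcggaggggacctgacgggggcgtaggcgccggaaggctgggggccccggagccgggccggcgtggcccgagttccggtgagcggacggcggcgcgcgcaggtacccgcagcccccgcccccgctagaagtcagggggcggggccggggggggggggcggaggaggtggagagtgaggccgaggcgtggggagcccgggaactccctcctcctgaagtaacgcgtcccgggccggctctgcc
The PU box stood 151 to 146 and, on the other strand, 9 to 4 bases before that FGR start. It stood on the other strand 115 to 110 bases before the CSK start. It was not found in the YES1 stretch, in the 4 FYN stretches or in the 2 LCK stretches. LCK, like FGR and CSK, was called higher under ATRA. Of all 35116 upstream stretches of this length, 23.6% hold the PU box on either strand. The stretches shown were picked by the members' changes, and whether the PU box goes with the direction of change was not tested. The 6 letters were searched after the full 8 letters, GAGGAAGT, had not been found in the stretches reported here. Those 8 letters occur in 2.17% of all stretches, the retinoid receptor core AGGTCA in 12.1% and the C/EBP site TTGCGCAA in 0.131%, and none of these was found in the stretches reported here for FGR, CSK, FYN, YES1 or LCK. GC content was 54.0% in the CSK stretch, 67.2% in this FGR stretch and 79.2% at YES1. It ran from 38.0% to 80.8% over the 4 FYN stretches.

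The first question was how ATRA changes the members in each genotype. Each genotype had 1 untreated group, with none matched to each ATRA time. The part of time in culture therefore cannot be told apart from that of ATRA. In wild-type cells 3 of 8 members were called higher and 2 lower at 48 h, and 4 higher and 2 lower at 72 h. FGR, LCK and CSK were higher at both times and SRC at 72 h, and FYN and YES1 were lower at both times. In knockout cells 4 were higher and 3 lower at 48 h, and 3 higher and 1 lower at 72 h. Over all probe sets 19.3% were called higher and 19.6% lower in wild-type cells at 48 h, and 23.1% and 21.0% at 72 h. In knockout cells these shares were 21.5% and 19.9% at 48 h, and 22.8% and 19.2% at 72 h. The median change of the 8 members was 0.19, 0.34, 0.30 and 0.18 on the log2 scale in the same order of comparisons, beside 0.10, 0.12, 0.14 and 0.13 over all probe sets. Levels differed over the 6 groups for 6 of 8 members by the F test (48.0% of all probe sets), all but LYN (adjusted p = 0.0578) and BLK (adjusted p = 0.534). ATRA and untreated groups did not overlap in 58.1% and 62.3% of all probe sets in wild-type cells at 48 and 72 h, and in 57.5% and 57.8% in knockout cells, so groups that do not overlap were the common case. As these are bulk samples, fewer cells expressing a gene and less RNA per cell cannot be told apart.

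**Figure D1:**
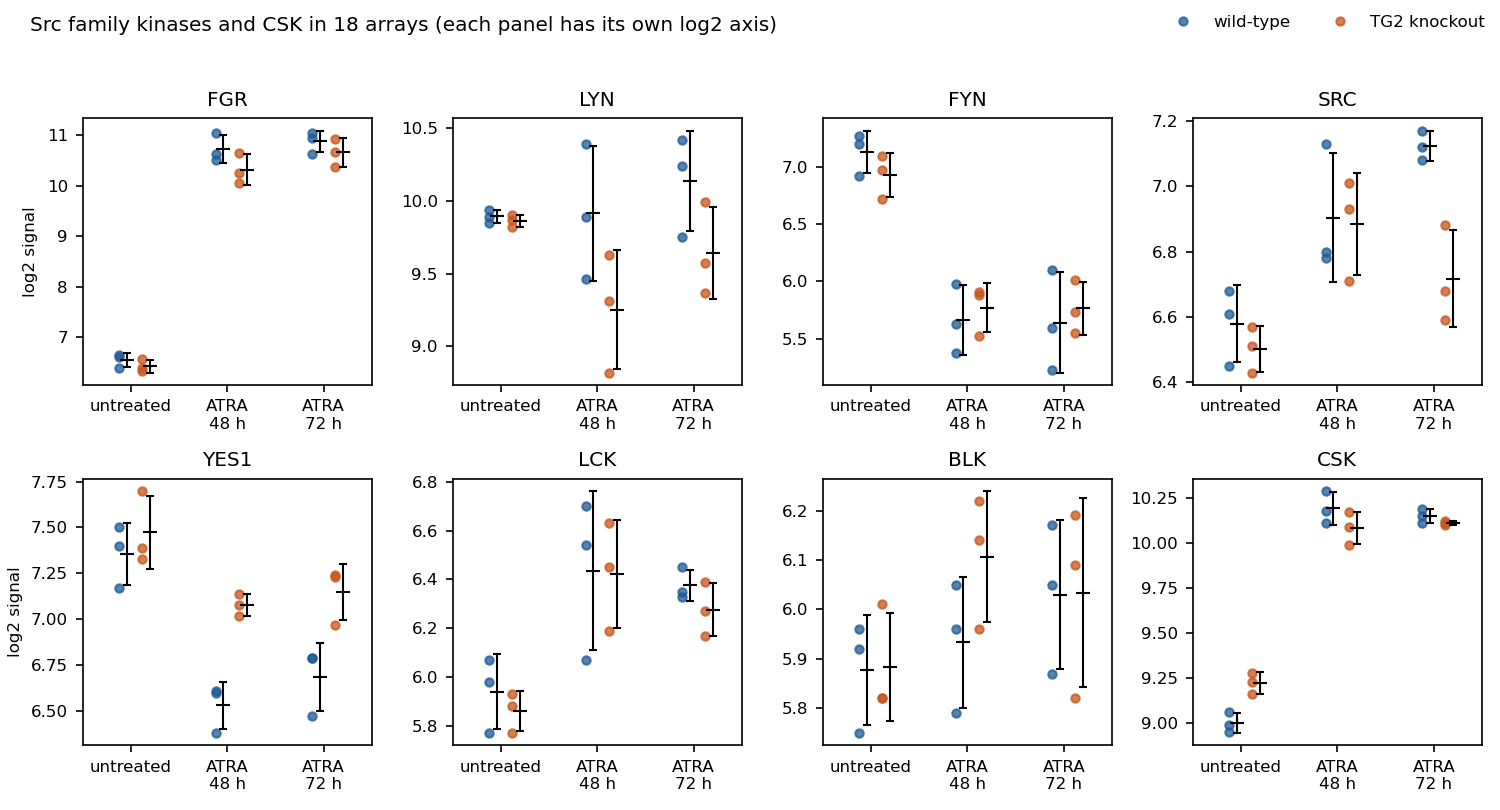
Log2 signal of each member (vertical axis, a separate scale per panel) by treatment, with 1 point per array, wild-type in blue and TG2 knockout in orange; the bars are the group mean ± SD of 3 arrays. FGR and CSK lie higher and FYN lower in every ATRA array than in any untreated array, and LYN spreads from 8.82 to 10.42 under ATRA.

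FGR, a kinase of mature myeloid cells that acts downstream of integrins, rose most of the 8 members. Its log2 signal was 6.60, 6.38 and 6.64 in the untreated wild-type replicates, 10.64, 10.51 and 11.05 at 48 h, and 10.96, 10.64 and 11.05 at 72 h. In knockout cells it was 6.56, 6.38 and 6.32 untreated, 10.25, 10.06 and 10.66 at 48 h, and 10.94, 10.37 and 10.68 at 72 h. Every ATRA array lay more than 3 log2 units above every untreated array, and the ATRA groups overlapped each other. The rise was 4.19 ± 0.18 (SE) at 48 h and 4.34 ± 0.18 at 72 h in wild-type cells (adjusted p = 1.53e-10 and 8.04e-11). In knockout cells it was 3.90 ± 0.18 and 4.24 ± 0.18 (adjusted p = 3.96e-10 and 1.28e-10), or 15.0-fold at 48 h and 18.9-fold at 72 h. The means ordered as wild-type 72 h (10.88), wild-type 48 h (10.73), knockout 72 h (10.66) and knockout 48 h (10.32), with SDs of 0.22 to 0.31. The first 3 means in that order lay within their spread of each other, and the knockout 48 h mean lay 0.34 below the knockout 72 h mean, with overlapping arrays.

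CSK, which phosphorylates the inhibitory tail of the other members, rose with FGR. It read 8.99, 8.95 and 9.06 in untreated wild-type arrays, 10.29, 10.18 and 10.11 at 48 h, and 10.19, 10.11 and 10.15 at 72 h. The knockout arrays read 9.23, 9.28 and 9.16 untreated, 10.09, 9.99 and 10.17 at 48 h, and 10.11, 10.12 and 10.10 at 72 h. No ATRA array came down to the untreated levels, and their spread was small, with an SD of 0.01 to 0.09 in each ATRA group. CSK rose 2.29-fold and 2.22-fold in wild-type cells (log2 1.19 and 1.15, SE 0.081, adjusted p = 2.54e-08 and 3.11e-08). In knockout cells the rise was 1.82-fold and 1.85-fold at the same times (log2 0.86 and 0.89, adjusted p = 8.08e-07 and 6.21e-07), from an untreated level that was 0.22 higher.

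FYN, a broadly expressed kinase that joins T cell and integrin signalling, fell in every comparison with untreated cells. The untreated wild-type arrays read 7.27, 6.92 and 7.20, those at 48 h 5.37, 5.63 and 5.98, and those at 72 h 5.23, 5.59 and 6.10. The knockout arrays read 7.09, 6.97 and 6.72 untreated, 5.52, 5.88 and 5.91 at 48 h, and 5.73, 5.55 and 6.01 at 72 h. No ATRA array reached the lowest untreated array, 6.72. The change was −1.47 ± 0.21 (SE) and −1.49 ± 0.21 in wild-type cells (adjusted p = 5.11e-05 and 3.96e-05), which left 36.1% and 35.6% of the untreated signal. In knockout cells it was −1.16 ± 0.21 at both times (adjusted p = 0.000453 and 0.000446), which left 44.9% and 44.7%. The ATRA levels, 5.23 to 6.10, lay below the array medians, and whether the FYN probe set was above background there was not tested.

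YES1, a close relative of SRC, fell in wild-type cells at both times and in knockout cells at 48 h. It read 7.40, 7.17 and 7.50 in untreated wild-type arrays, 6.61, 6.60 and 6.38 at 48 h, and 6.47, 6.79 and 6.79 at 72 h. In knockout cells the arrays read 7.70, 7.39 and 7.33 untreated, 7.02, 7.08 and 7.14 at 48 h, and 6.97, 7.24 and 7.23 at 72 h. In each genotype the ATRA arrays lay below all untreated ones. The wild-type change was −0.83 ± 0.14 (SE) at 48 h and −0.67 ± 0.14 at 72 h (adjusted p = 0.000197 and 0.000985). The knockout change was −0.39 ± 0.14 at 48 h (adjusted p = 0.0316) and −0.33 ± 0.14 at 72 h (adjusted p = 0.0676, not called, though called at −0.37 with arrays centred on their median, adjusted p = 0.0447). The 48 h call in knockout cells ended without untreated replicate 1 (−0.28, adjusted p = 0.161), without 48 h replicate 1 (−0.36, adjusted p = 0.0835) or replicate 2 (−0.39, adjusted p = 0.0635), and without the 4 ATRA arrays nearest the untreated ones (−0.39, adjusted p = 0.138), where only 48 h replicate 2 was left in the group. It also ended after quantile normalization (−0.28, adjusted p = 0.133), with only the compared groups in the fit (adjusted p = 0.0510) and with array weights by group (adjusted p = 0.104), and over 18 settings, the reported one among them, its adjusted p ran from 0.0143 to 0.161.

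**Figure D2:**
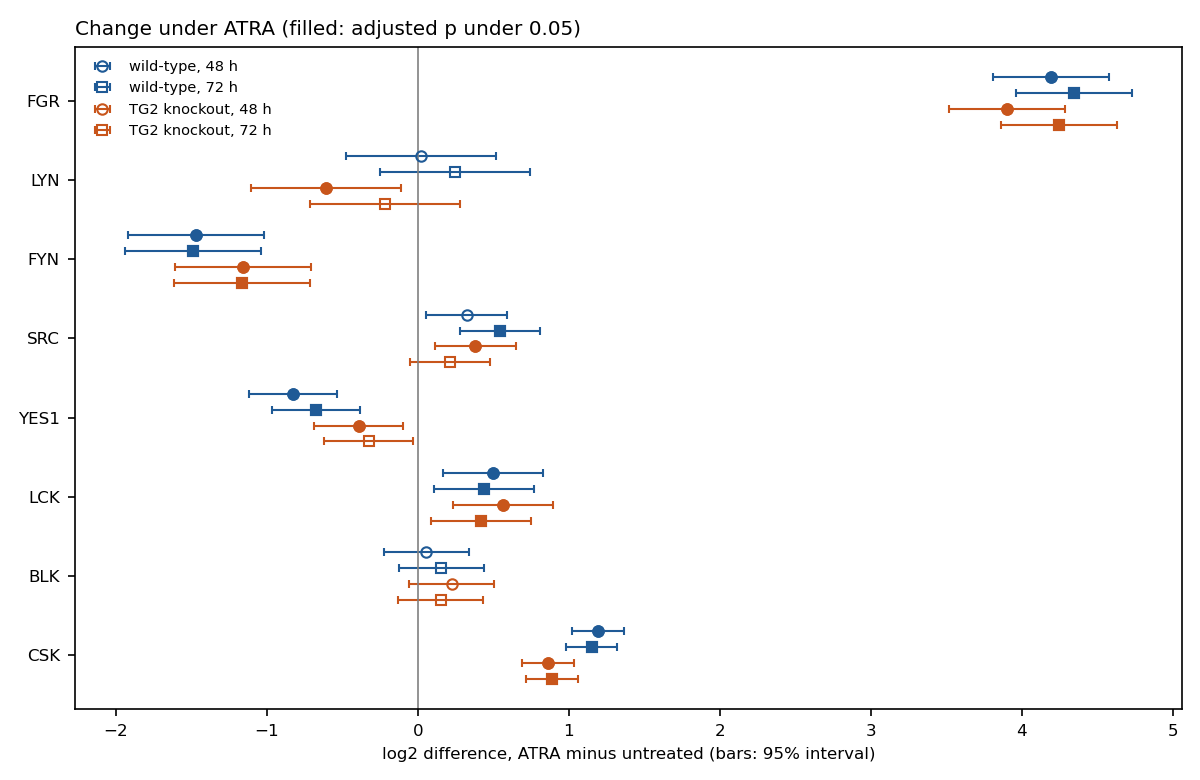
Log2 difference of ATRA minus untreated arrays (horizontal axis) for each member, with the 95% interval of the limma fit; circles are 48 h and squares 72 h, wild-type in blue and TG2 knockout in orange, and filled symbols have an adjusted p under 0.05. FGR stands at 3.90 to 4.34, CSK at 0.86 to 1.19 and FYN at −1.49 to −1.16, while BLK crosses 0 in all comparisons.

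SRC, the founding member of the family, had small rises. The wild-type arrays read 6.61, 6.68 and 6.45 untreated, 6.78, 7.13 and 6.80 at 48 h, and 7.08, 7.17 and 7.12 at 72 h. The knockout arrays read 6.43, 6.51 and 6.57 untreated, 6.71, 7.01 and 6.93 at 48 h, and 6.68, 6.59 and 6.88 at 72 h. Groups under ATRA did not overlap the untreated groups of their genotype, as for most probe sets, and in knockout cells at 72 h the gap was 6.57 to 6.59. SRC rose by 0.54 ± 0.13 (SE) in wild-type cells at 72 h (adjusted p = 0.00252) and by 0.38 ± 0.13 in knockout cells at 48 h (adjusted p = 0.0240). The differences of 0.32 in wild-type cells at 48 h (adjusted p = 0.0524) and 0.21 in knockout cells at 72 h (adjusted p = 0.183) were not called. The former lay near the threshold and was called in 7 of 18 settings, with adjusted p from 0.0258 to 0.233 over them. These were the fits without wild-type 48 h replicate 1 (0.385, adjusted p = 0.0375) and without the 4 ATRA arrays nearest the untreated ones, which include it (0.385, adjusted p = 0.0258), quantile normalization (0.36, adjusted p = 0.0392), the brighter probe sets alone (adjusted p = 0.0377), single-gene probe sets alone (adjusted p = 0.0487), robust eBayes (adjusted p = 0.0487) and weights by group (adjusted p = 0.0497). The knockout 48 h call ended without untreated replicate 1 (0.34) or 2 (0.38), or 48 h replicate 2 (0.32) or 3 (0.36), with adjusted p of 0.0577 to 0.0865 (0.0145 to 0.0865 over 18 settings), and with arrays centred on their median (0.30, adjusted p = 0.0552).

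LCK, the T cell kinase bound by CD4 and CD8, was called higher in all 4 comparisons with untreated cells. Its arrays read 5.98, 6.07 and 5.77 in untreated wild-type cells, 6.07, 6.70 and 6.54 at 48 h, and 6.35, 6.33 and 6.45 at 72 h. The knockout arrays read 5.77, 5.93 and 5.88 untreated, 6.19, 6.63 and 6.45 at 48 h, and 6.39, 6.27 and 6.17 at 72 h. Only wild-type 48 h replicate 1 overlapped the untreated arrays of its genotype. The rises were 0.50 and 0.44 in wild-type cells (SE 0.16, adjusted p = 0.0192 and 0.0324), and 0.56 and 0.42 in knockout cells (adjusted p = 0.00898 and 0.0416). All values lay near the array medians. The wild-type 48 h call ended without untreated replicate 3 (0.41), or 48 h replicate 2 (0.365) or 3 (0.445), and with only the compared groups in the fit (adjusted p = 0.0609). The wild-type 72 h call ended without untreated replicate 1 (0.46) or 3 (0.35), or any 1 of the 3 arrays at 72 h (0.40 to 0.46), and after quantile normalization (0.40). The knockout 72 h call ended without any 1 of the 3 untreated arrays (0.37 to 0.45), or 72 h replicate 1 (0.36) or 2 (0.42), after quantile normalization (0.36) and with centred arrays (0.37). Adjusted p reached 0.102, 0.133 and 0.126 in these comparisons, and the knockout 48 h call held in all 18 settings but the 2-fold criterion.

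LYN, which phosphorylates both activating and inhibitory receptors in myeloid cells, was called in 1 of 4 comparisons with untreated cells, and its arrays spread under ATRA. The untreated arrays were close, at 9.89, 9.85 and 9.94 in wild-type and 9.90, 9.87 and 9.82 in knockout cells. Wild-type arrays read 9.89, 9.46 and 10.39 at 48 h and 10.42, 9.75 and 10.24 at 72 h, and knockout arrays 9.31, 8.82 and 9.63 at 48 h and 9.99, 9.37 and 9.57 at 72 h. The SD was 0.045 and 0.040 in the untreated groups and 0.32 to 0.47 in the ATRA groups, where the median SD over all probe sets was 0.0757 and 0.0985, and 0.22 to 0.24. The fit assumes 1 spread for all groups. In wild-type cells the changes were 0.02 and 0.24 ± 0.23 (SE, adjusted p = 0.956 and 0.416). In knockout cells LYN was called lower at 48 h, by −0.61 ± 0.23 (adjusted p = 0.0467), and at 72 h the difference was −0.22 (adjusted p = 0.466).

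The 48 h call for LYN in knockout cells ended after quantile normalization (−0.34, adjusted p = 0.284) and without the mean-variance trend (adjusted p = 0.0557), with a range of 0.0136 to 0.284 over 18 settings. It ended without any 1 of the 3 untreated arrays (−0.63 to −0.59), or 48 h replicate 1 (−0.64) or 2 (−0.39), and it held without replicate 3 (−0.80, adjusted p = 0.0177). Without the 4 ATRA arrays nearest the untreated ones it held at −1.04 (adjusted p = 0.0159), a value that rests on replicate 2 alone, the lowest LYN array of its group. Quantile normalization moved all 4 LYN changes upwards, to 0.29 and 0.51 in wild-type and −0.34 and 0.03 in knockout cells. BLK, the B cell member, had means of 5.88 to 6.11 in the 6 groups, SDs of 0.11 to 0.19 and changes of 0.06 to 0.22, none of them called. Its intervals reached at most 0.50 above untreated, and whether its probe set was above background was not tested.

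Between 48 and 72 h of ATRA limma called 0 of 8 members in wild-type and 0 in knockout cells, with 0 and 0 at an unadjusted p under 0.05. Over all probe sets 0% were called in each genotype, with 1952 and 2732 at an unadjusted p under 0.05. The widest difference was that of LYN in knockout cells, 0.39 (95% interval −0.11 to 0.89), then that of FGR in knockout cells, 0.34 (−0.04 to 0.72). The intervals of CSK were the narrowest, −0.22 to 0.13 in wild-type and −0.15 to 0.20 in knockout cells.

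The second question, which the series states as its aim, was how the genotypes compare at the same time points. limma called 0 of 8 members at each of untreated, 48 h and 72 h, with 1 (CSK), 3 (FGR, LYN and YES1) and 2 (SRC and YES1) at an unadjusted p under 0.05. Over all probe sets 0.00601%, 0.0210% and 0.0961% were called, with 382, 1972 and 3713 of 33297 at an unadjusted p under 0.05. For the difference of the ATRA response between genotypes 0 members were called at 48 h (0.00300% of all probe sets) and 0 at 72 h (0%). At an unadjusted p under 0.05 there were 2 members (YES1 and CSK) and 1 (CSK), beside 960 and 1553 of all 33297 probe sets. So that both times bear on 1 value, the mean of the 48 and 72 h arrays was also compared between genotypes. That comparison was added after the data were seen.

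YES1 was higher in ATRA-treated knockout cells than in wild-type cells at the same times. The 6 knockout arrays read 6.97 to 7.24 and the 6 wild-type arrays 6.38 to 6.79, so the genotypes did not overlap at either time or over both. Over both times YES1 was 1.42-fold higher in knockout cells (log2 0.51 ± 0.098 SE, 95% interval 0.30 to 0.71, adjusted p = 0.0321), the only member of 8 called, where 0.369% of all probe sets were called. At 48 h alone the difference was 0.55 (adjusted p = 0.376), at 72 h 0.46 (adjusted p = 0.219) and in untreated cells 0.12 (95% interval −0.18 to 0.41). The groups of 0.520% of all probe sets did not overlap over both times. The difference of the responses over both times, 0.39 (0.03 to 0.75), was not called (adjusted p = 1.0, 0.00300% of all probe sets called), so the response itself was not shown to differ between genotypes.

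The YES1 call over both times ended on leaving out any 1 of 6 arrays, wild-type 48 h replicate 3 (0.47), wild-type 72 h replicate 1 (0.45), knockout 48 h replicate 1 (0.52) or 3 (0.49), or knockout 72 h replicate 2 (0.48) or 3 (0.49). It ended too with only the compared groups in the fit (adjusted p = 0.222), with array weights by group (adjusted p = 0.414) and without the 4 ATRA arrays nearest the untreated ones (0.50, adjusted p = 0.0721). Over 24 settings the difference stayed between 0.45 and 0.55 while its adjusted p ran from 0.0166 to 0.414.

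**Figure D3:**
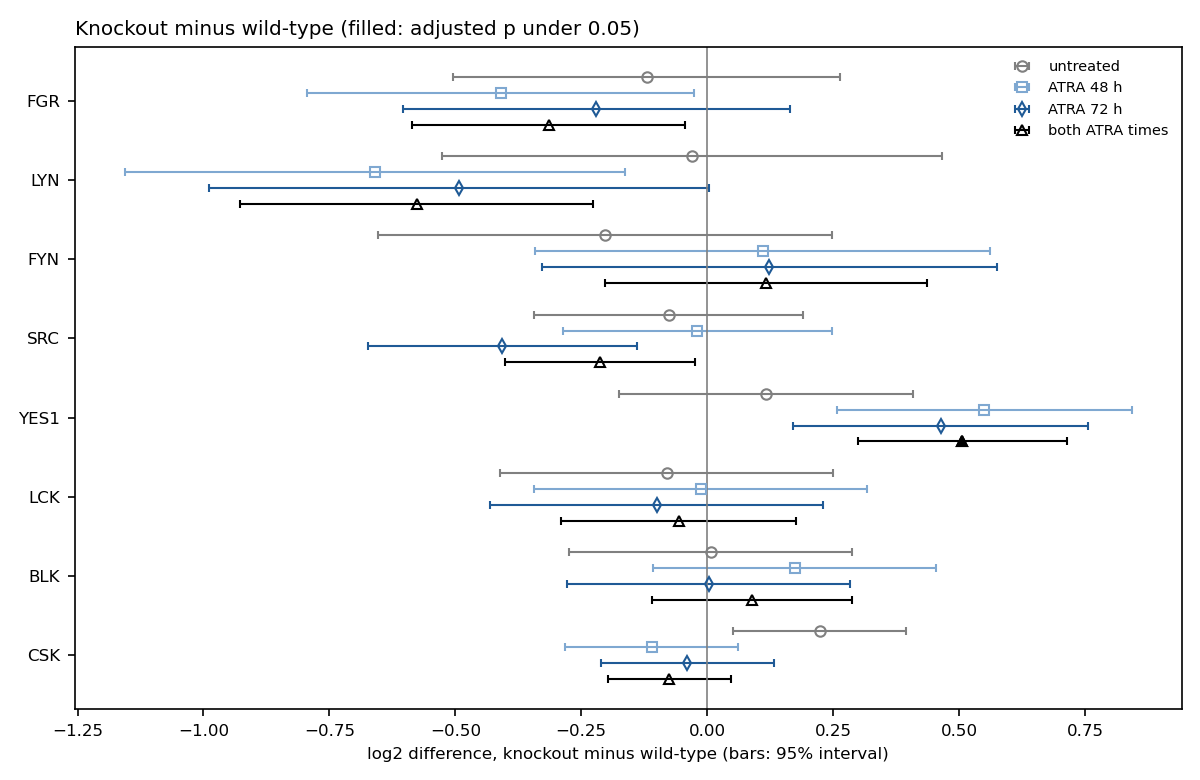
Log2 difference of TG2 knockout minus wild-type arrays (horizontal axis) for each member, untreated, at 48 h, at 72 h and over both ATRA times, with the 95% interval of the limma fit; the filled symbol has an adjusted p under 0.05. YES1 over both ATRA times, 0.51, is the only filled symbol, and LYN lies at −0.66 to −0.49 under ATRA.

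LYN had lower means in ATRA-treated knockout cells, but its groups overlapped and no difference was called. The difference was −0.66 (95% interval −1.16 to −0.16) at 48 h (adjusted p = 0.681), −0.49 (−0.99 to 0.00) at 72 h (adjusted p = 0.450) and −0.03 in untreated cells. Over both times it was −0.58 (−0.93 to −0.23, adjusted p = 0.173), and with the replicate number as a block the adjusted p was 0.0578 (0.0578 to 0.641 over 24 settings). FGR differed by −0.41 (−0.79 to −0.03) at 48 h (adjusted p = 0.807) and by −0.22 at 72 h (adjusted p = 0.721). SRC arrays at 72 h did not overlap, at 6.59 to 6.88 in knockout and 7.08 to 7.17 in wild-type cells, a difference of −0.41 (−0.67 to −0.14, adjusted p = 0.237). At 48 h the SRC difference was −0.02, with overlapping arrays. FYN, LCK and BLK differed by −0.20 to 0.17 at each time, with overlapping groups.

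CSK was the 1 member whose untreated groups did not overlap, at 9.16 to 9.28 in knockout and 8.95 to 9.06 in wild-type cells. The difference of 0.22 (95% interval 0.05 to 0.40) was not called (adjusted p = 1.0), and untreated groups did not overlap in 18.1% of all probe sets. With array weights by group, which give the tighter untreated arrays more weight, it was called (adjusted p = 0.0178), as were 309 of all 33297 probe sets, against 2 in the reported fit. Under ATRA CSK lay at −0.11 (−0.28 to 0.06) at 48 h and −0.04 (−0.21 to 0.13) at 72 h. The difference of its ATRA response, knockout minus wild-type, was −0.33 (−0.58 to −0.09) at 48 h and −0.26 (−0.51 to −0.02) at 72 h, neither of them called (adjusted p = 0.9998 for both). In all, groups did not overlap for 1 member at 48 h (6.76% of all probe sets) and 2 at 72 h (11.65%), YES1 at both times and SRC at 72 h.

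Replicate numbers moved with the levels of FGR, LYN and FYN under ATRA. Replicate 2 had the lowest FGR and the lowest LYN of its group in all 4 ATRA groups, on average 0.26 and 0.39 below the group mean. Replicate 3 had the highest FYN in all 4, on average 0.29 above. CSK showed no such order, with mean deviations between −0.03 and 0.04. Of all probe sets, 4.37% had replicate 2 lowest in all 4 ATRA groups and 2.07% had it highest, and 2.39% had replicate 3 highest. The labels do not say whether a number marks a shared culture or day, and the part of culture in these deviations was not tested. PTPRC, which encodes the phosphatase CD45 that opens the kinases, was lowest in replicate 2 of all 4 ATRA groups too. That replicate read 8.74 and 8.68 in wild-type and 8.21 and 8.72 in knockout cells at 48 and 72 h. The pattern was noticed after the values were seen. SLA, ITGAM and TYK2, from the lists below, were also lowest in replicate 2 of all 4 ATRA groups. The order was thus not particular to PTPRC.

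**Figure D4:**
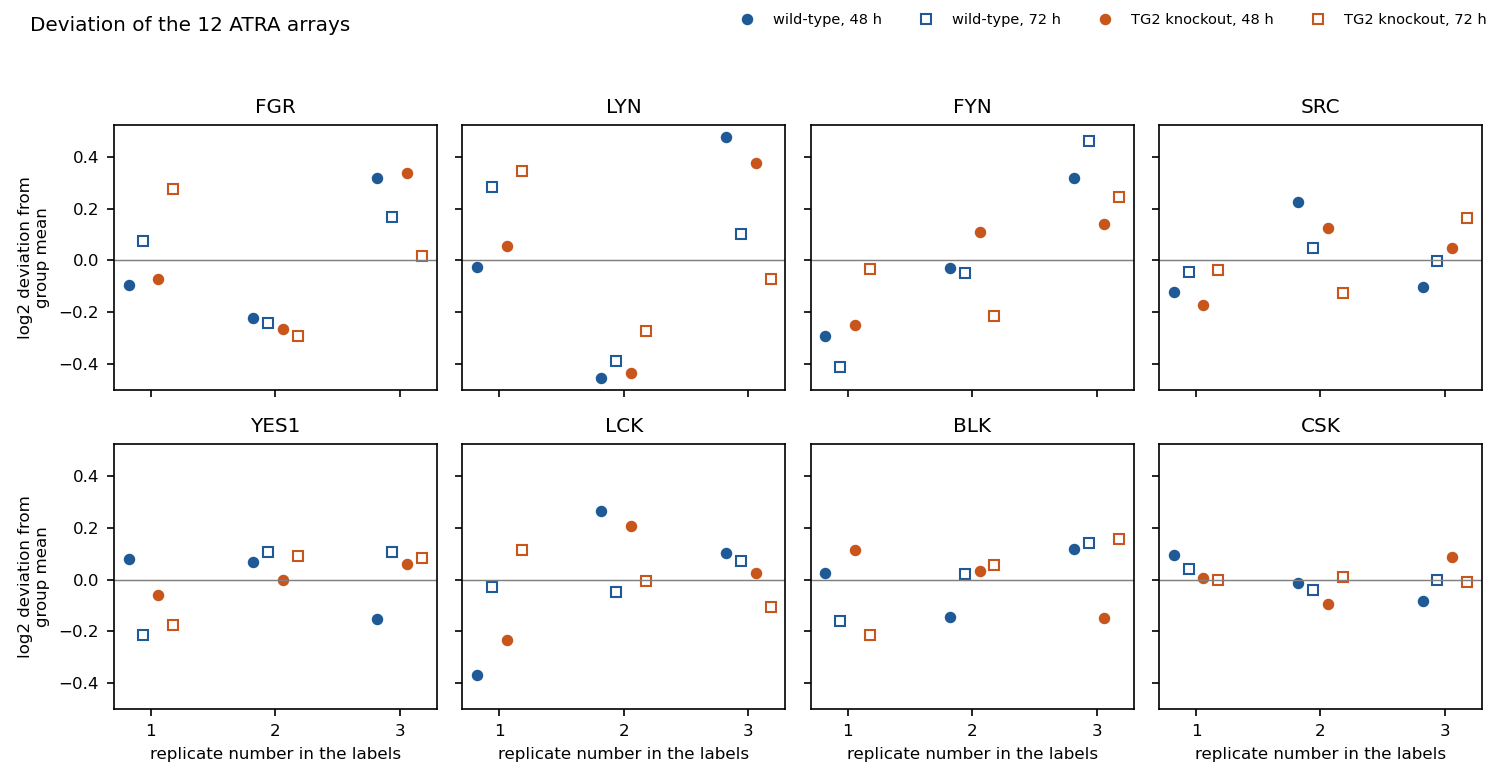
Deviation of each of the 12 ATRA arrays from its group mean in log2 units (vertical axis) by the replicate number of the labels, with filled circles for 48 h, open squares for 72 h, wild-type in blue and TG2 knockout in orange. In FGR and LYN all 4 arrays of replicate 2 lie lowest in their group, and in FYN all 4 arrays of replicate 3 lie highest.

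The genes whose log2 signal over the 18 arrays was most like that of a member were sought among 10969 genes for the 4 members with the widest group means. These correlations share the step between untreated and ATRA arrays, so r over the 12 ATRA arrays is given beside each. FGR was most like ALOX5AP (r = 0.997, and 0.863 under ATRA), PADI2 (0.996 and 0.933) and PSMB9 (0.996 and 0.814). ALOX5AP serves leukotriene synthesis, PADI2 is a peptidylarginine deiminase and PSMB9 an immunoproteasome subunit. CSK was most like SLC2A5, a fructose transporter (r = 0.990 and 0.778), STING1, a sensor of cyclic dinucleotides (0.990 and 0.793), and DHRS3, a retinaldehyde reductase (0.987 and 0.498). FYN was most like CRTC3, a CREB coactivator (r = 0.963 and 0.710), CDC34, a ubiquitin-conjugating enzyme (0.962 and 0.766), and ELFN1 (0.960 and 0.724). YES1 was most like LAMC1, a laminin chain (r = 0.955 and 0.945), INSR, the insulin receptor (0.944 and 0.923), and ENAH, an actin regulator (0.933 and 0.874). The genes were picked by r over arrays that include these 12, which for YES1 also hold its genotype difference, so the r under ATRA is a description only.

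Genes that act on or with the kinases were described from 5 lists, at 72 h against untreated cells. Their counts stand beside 23.1% of all probe sets called higher and 21.0% lower in wild-type cells, and 22.8% and 19.2% in knockout cells, with medians over all probe sets of 0.12 and 0.13. The first list held kinases and phosphatases that set the inhibitory tail, CSK among them. It also held adaptors and other regulators, such as SLA, DOK2, CBLB and SOCS1, so its counts are not of tail enzymes alone. Of its 23 measured genes 12 were called higher and 3 lower in wild-type cells (median 0.44). In knockout cells 5 were called higher and 5 lower (median 0.15), near the shares over all probe sets. SLA, an adaptor that dampens receptor signalling, rose by 2.52 in wild-type and 2.43 in knockout cells. PTPRC rose by 0.99 and 0.95, and PTPRE, a receptor phosphatase that can open the tail, changed by −1.88 and −1.55. DOK2, an inhibitory adaptor that the kinases phosphorylate, rose by 0.87 in wild-type cells, with a difference of 0.32 in knockout cells that was not called (adjusted p = 0.229). The others called lower were PTPN12 (−0.70 and −0.72) and CBLB (−0.84 and −0.81) in both genotypes, and MATK (−0.33) and DOK3 (−0.36) in knockout cells. The others called higher in knockout cells were LIME1 (0.60) and PTPN6 (0.65).

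Of 20 measured receptors and signalling proteins that the kinases phosphorylate in myeloid cells, 11 were called higher and 5 lower in wild-type cells (median 0.58), and 10 higher and 6 lower in knockout cells (median 0.55). PRAM1, an adaptor of neutrophils, rose by 3.28 in wild-type and 3.24 in knockout cells, and HCLS1, a cortactin-like substrate of LYN and FGR, by 1.65 and 1.52. ITGAM, the integrin chain CD11b, rose by 2.32 and 1.36. FCER1G, the Fc receptor chain that carries an activating motif, rose by 1.95 in wild-type cells, and its 1.09 in knockout cells was not called (adjusted p = 0.0542). FCGR2A (−1.24), TEC (−0.95), PLCG2 (−0.53), LAT2 (−0.58) and GAB2 (−1.10) were the 5 called lower in wild-type cells. Over both ATRA times 2 were called lower in knockout than in wild-type cells, ITGAM (−0.62, adjusted p = 0.0407) and TYROBP, the other activating chain (−0.63, adjusted p = 0.0348). For both genes the arrays of the genotypes overlapped. The comparison is the one added after the data were seen, and these 2 calls were not tried under the alternatives. TYROBP is named after its value was seen.

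Inhibitory receptors whose motifs LYN phosphorylates had 10 of 18 called higher and 0 lower in wild-type cells (median 0.63), and 7 higher and 1 lower, SIGLEC5 (−0.72), in knockout cells (median 0.37). CD300A rose by 2.68 and 2.45, CEACAM1 by 1.91 and 1.07, SIRPA by 1.51 and 0.92 and LILRB2 by 1.23 and 0.78. Untreated CEACAM1 arrays read 4.97 to 5.37, below the array medians, and whether that probe set was above background there was not tested. Of 21 other cytoplasmic tyrosine kinases 8 were higher and 2 lower in wild-type cells (median 0.25), and 5 higher and 3 lower in knockout cells (median 0.25). TYK2, a kinase of cytokine receptors, rose by 1.29 and 1.13, and PTK2B, the focal adhesion kinase of blood cells, by 1.21 and 0.97. TEC (−0.95 and −0.76) and ABL2 (−0.92 and −0.78) were lower in both genotypes, and MATK in knockout cells. SYK (0.61), TXK (0.44) and TNK1 (0.29) made up the 5 called higher there.

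Of 12 adhesion substrates 4 were higher and 2 lower in wild-type cells (median 0.08), and 3 higher and 2 lower in knockout cells (median 0.20), counts near the shares over all probe sets. PXN, the adaptor paxillin, rose by 2.29 and 1.59, and PTK2B is counted here too. PTK2, the focal adhesion kinase, rose by 0.61 in wild-type cells, and TLN1, talin, by 0.57. The PTK2 arrays read 4.48 to 4.74 untreated and 4.84 to 5.53 at 72 h there, below the array medians. Whether the PTK2 probe set was above background was not tested. CTTN, cortactin (−0.70 in both genotypes), and CRKL (−0.45 and −0.44) were lower, and EFS was higher in knockout cells (0.36). In the genotype comparisons at each time point and in the differences of response, 0 genes of each of the 5 lists were called. FCGR2A, SIRPA, LILRB2, CEACAM1 and SIGLEC5 belong to families with closely similar copies, and whether their probes also read a relative was not tested.

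Markers of the labelled cell type and of other cells were read beside these results. The mean log2 signal of 10 promyelocyte and neutrophil markers was 9.18 to 9.23 in wild-type and 9.37 to 9.40 in knockout arrays without ATRA, and 9.61 to 9.83 under ATRA. These means hold changes in both directions, with 7 of 10 called higher and 2 lower in wild-type cells at 72 h, and 5 and 2 in knockout cells. CSF3R, the G-CSF receptor, rose by 2.33 and 1.72, and CEBPE, a transcription factor of granulocytes, by 1.81 and 1.55. The granule proteins CTSG (−2.48 and −2.93) and MPO (−0.47 and −0.46) fell. The other granule proteins of the list, ELANE, PRTN3 and AZU1, were not among the 2 called lower. Most of them were among the 7 called higher in wild-type cells, so the granule proteins did not move in 1 direction. T cell markers, relevant to LCK, had array means of 5.78 to 5.88 untreated and 5.77 to 6.11 under ATRA. Of 9, CD3E (0.49) and CD4 (0.73) were called higher and CD3D (−0.73) lower in wild-type cells at 72 h, and CD3D alone (−0.61) in knockout cells. B cell markers, relevant to BLK, had means of 5.39 to 5.49 untreated and 5.44 to 5.77 under ATRA, with CD79A higher (0.85) and CD79B lower (−0.73) of 7 in wild-type cells at 72 h, and CD79A (0.62) and FCER2 (0.42) higher and CD79B (−0.77) lower in knockout cells. Monocyte and macrophage markers went from 6.11 to 6.27 untreated to 6.41 to 7.04 in wild-type and 6.34 to 6.58 in knockout ATRA arrays. Of 7, CD14 (0.51), CSF1R (0.79), CD68 (0.85) and CX3CR1 (1.73) were higher in wild-type cells at 72 h, and CD14 (0.51) and CD68 (0.47) in knockout cells. NK cell markers had means of 5.96 to 6.05 untreated and 6.13 to 6.37 under ATRA, with NKG7 higher of 7 in wild-type (1.07) and knockout cells (0.70) at 72 h. Platelet markers (5.17 to 5.57) and fibroblast and epithelial markers (6.05 to 6.43) had 2 of 6 and 1 of 6 called higher in wild-type cells at 72 h, ITGA2B (0.35), PPBP (0.55) and COL1A1 (0.31). In knockout cells ITGA2B (0.33), PF4 (0.69), COL1A2 (0.41) and DCN (0.69) were higher and EPCAM lower (−1.07). The part of other cells in the levels of the members was not tested.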

How the data were processed

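RNA of 18 NB4 samples was measured on Affymetrix whole-transcript arrays, from 300 ng total RNA per the labels' protocols. The deposited values, 1 for each array and probe set, were taken to be log2 from their range (0.73 to 13.56). How the authors corrected background, normalized and summarised probes is not given in the sources used here. Values were used as deposited, with no detection call, and precision is limited by the number of arrays. GEO's platform annotation gives 1 gene to 19460 of the 33297 probe sets, several to 1754 and none to 12083.

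All 18 arrays were fitted with 1 mean per group in limma 3.58.1 (R 4.3.3), with contrasts and eBayes with a mean-variance trend. Tests are 2-sided, p-values are adjusted by Benjamini-Hochberg within a contrast over all probe sets, and intervals are 95%. The fit was tested on simulated data. p-values measure the spread between the labelled biological replicates, whose cultures are not described further. Members and lists were chosen with earlier results of these data known. Named genes are the 8 members, the 3 genes most correlated with each of the 4 members of widest range, and from each list up to 4 members called in wild-type cells at 72 h with the largest change and up to 2 called in a genotype comparison. Motifs were searched in the 250 bases before each RefSeq start, and bases after the start were left out. Not every stretch is reported here, and for FGR only the first listed one is. Of the 8 members, FGR, LCK, FYN, CSK and YES1 matched that table.

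Same-numbered arrays of the genotypes were taken as paired where r of their deviations across probe sets was over 0.1 for all 3 numbers. That held at 72 h (0.103, 0.160 and 0.138) and for 2 of 3 numbers at 48 h (0.197, 0.194 and 0.0890), and for none in untreated cells (−0.0601, −0.0560 and −0.128). The reported limma fit has no pairing term at any time, so its genotype p-values at 72 h leave this pairing out. For LYN at 72 h, knockout against wild-type, the SE was 0.234 in that fit and 0.179 with the replicate block. The limma adjusted p was 0.450 and 0.286. Alternatives were quantile normalization, median centring, dim or multi-gene probe sets left out, no trend, robust eBayes, weights by group, only the compared groups, the replicate block, an added 2-fold criterion, each array left out, and, after seeing the data, 4 arrays left out together and both ATRA times compared jointly.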

Additional observations from a re-analysis of the deposited data

How the results depend on the processing

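Of 1982 values of single members under alternatives, 1853 kept their direction and side of the threshold, 58 calls were lost, 9 were gained and 62 uncalled differences changed sign. No call changed direction. The calls of FGR and FYN were lost under none of the alternatives in which they were tested, and those of CSK in knockout cells only under the 2-fold criterion. FYN and BLK were left untested where only the brighter probe sets were kept. With calls of at least 2-fold, members called against untreated cells numbered 3 at 48 h and 3 at 72 h in wild-type cells, and 2 and 2 in knockout cells. Leaving out each array in turn gave 4 to 6 members in wild-type cells at 48 h, 5 to 6 at 72 h, 4 to 6 in knockout cells at 48 h and 3 to 4 at 72 h. With weights by group 1 member (CSK) and 309 of all probe sets were called between the untreated genotypes. The count over both ATRA times was 0 with only the compared groups, with weights by group, with the 2-fold criterion and without the 4 arrays nearest to untreated, and 0 to 1 on leaving out each array. The cause of these changes was not tested. The last 2 of these settings, and the fit with only the compared groups, also use fewer arrays. The replicate number as a block gave 5, 6, 7 and 4 members called against untreated cells in the same order, 0 between genotypes at each time and 1 over both times, and it changed no other call of a member. All 3 numbers passed the pairing minimum at 72 h only, and 2 of 3 at 48 h. Each member had 1 probe set, so no other probe set could be tried. Dim members near the array medians (FYN under ATRA, LCK and BLK) are the ones that signal over background limits.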
